A study of Mus musculus with 2 samples.

Results

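Genes that carry proteins to the lysosome, or that make the tag by which they are recognised, were described in single cells of mouse liver tumours: Igf2r, M6pr, Asgr1, Asgr2, Sort1, Lrp1, Tfrc, Scarb2 and Gnptab. They were chosen by symbol as 9 of the 32285 genes in the count matrices, and no measured value entered the choice. All but the last encode receptors or carriers, whereas Gnptab encodes an enzyme of the Golgi and is no receptor. The tumours had been grown in mice from Hepa1-6, an established mouse hepatoma line, and were profiled by droplet sequencing in 1 control library and 1 library of animals given CD147-LYTACs. The labels name no agent for the controls, and give 40 mg/kg for the treated animals, repeated every 3 days to 4 doses, with harvest on day 12. They name both an intraperitoneal and an intravenous route, and give neither the strain and age of the mice nor the number of tumours per library. In both groups CD45-negative and CD45-positive cells were sorted apart and put back together as 1 part to 3, so the shares of cell types were set in part by the sort.

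A lysosome-targeting chimaera, or LYTAC, joins a binder of a surface protein to a ligand of a receptor that travels between the surface and the lysosome, so that the receptor takes the bound protein along. The first such designs carried mannose 6-phosphate, the tag read by the cation-independent receptor (Igf2r), and later ones carried N-acetylgalactosamine, the sugar read by the asialoglycoprotein receptor of hepatocytes (Asgr1 and Asgr2). The target here, CD147 or basigin (Bsg), is a surface glycoprotein that escorts lactate transporters. The labels do not say which receptor the chimaera was built to use, so the levels below describe which of these receptors had transcripts in which cells. Transcripts give neither the amount of receptor at the surface nor its traffic.

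Promoter windows of up to 250 bases are shown for 3 members because these genes encode the receptors read by the mannose 6-phosphate and N-acetylgalactosamine designs. Igf2r was detected in all 8 cell types compared, and both asialoglycoprotein receptor genes were close to 0 in the hepatoma-like cells. The sequences are from the RefSeq promoter table (GRCm38.p6), which matched 7 of the 9 members. Its windows do not all end at the start of the gene spans given below. The Igf2r window stops short of that start, and the full Asgr1 window runs past it. They are read 5′ to 3′ on the gene's own strand, at chr17:12769707-12769956 (minus) for Igf2r, chr11:70053874-70054084 (plus, 211 bases, ending at the start of the annotated gene) for Asgr1 and chr11:70092394-70092643 (plus) for Asgr2. Capitals mark each CG pair.
Igf2r: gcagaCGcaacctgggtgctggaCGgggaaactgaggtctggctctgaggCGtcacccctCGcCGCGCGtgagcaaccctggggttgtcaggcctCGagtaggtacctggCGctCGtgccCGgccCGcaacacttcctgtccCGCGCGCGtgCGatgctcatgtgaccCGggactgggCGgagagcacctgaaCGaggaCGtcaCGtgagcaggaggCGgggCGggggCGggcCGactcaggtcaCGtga
Asgr1: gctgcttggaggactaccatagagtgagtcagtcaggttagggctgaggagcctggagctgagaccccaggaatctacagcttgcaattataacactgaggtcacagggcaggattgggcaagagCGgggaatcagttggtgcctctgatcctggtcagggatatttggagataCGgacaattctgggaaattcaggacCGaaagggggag
Asgr2: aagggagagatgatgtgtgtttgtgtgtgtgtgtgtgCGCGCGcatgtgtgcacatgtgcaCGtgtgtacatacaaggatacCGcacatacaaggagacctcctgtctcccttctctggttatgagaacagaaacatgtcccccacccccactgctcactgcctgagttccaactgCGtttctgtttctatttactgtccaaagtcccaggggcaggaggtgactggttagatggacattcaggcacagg
The Igf2r window held 27 CG pairs, more than 91.4% of 32851 such windows, in which the median was 6. The full Asgr1 window held 3 and the Asgr2 window 6, more than 29.0% and 49.6% of windows. On either strand, CACGTG occurred in the Igf2r and the Asgr2 window and in 6.02% of all windows. Its extended form TCACGTGA, which contains CACGTG, occurred in the Igf2r window and in 0.785% of all, and GGGCGG occurred in the Igf2r window and in 32.7% of all. Among the other matched members the windows of Gnptab (33 CG pairs), Tfrc (25 and 23 at its pair of starts), Scarb2 (19) and Lrp1 (13) were all above the median. Not all of these bases lie before the annotated gene. The Scarb2 window lies wholly within it, and the windows of Gnptab and of the second Tfrc start run into theirs. These are letters in a window and no evidence of binding. On GRCm38, Igf2r spans chr17:12682406-12769664, Asgr1 chr11:70054085-70057894 and Asgr2 chr11:70092644-70106187, and all 9 members are annotated as protein coding.

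The control library held 8150 barcodes with 143495332 UMIs and the treated library 9219 with 149812326, and 24 barcodes occurred in both. Cell types were gated from marker genes, none of them a member, and are called by the type their markers resemble. They comprised 2048 control and 2256 treated hepatoma-like cells, 3967 and 2894 T-like cells, 140 and 1140 neutrophil-like cells, 120 and 196 monocyte-like cells, 109 and 340 macrophage-like cells, and 89 and 68 conventional dendritic-like cells. Within the T-like cells, 2847 and 2098 were CD8 T-like, 293 and 192 CD4 T-like and 102 and 70 regulatory T-like. Barcodes passing the gates of 2 lineages, 3.72% of control and 8.08% of treated barcodes, were left out. Levels are CPM of the summed UMIs of a cell type, with exact Poisson 95% intervals in parentheses. A level is thus a share of a type's UMIs and not a number of transcripts per cell, and the types differed in UMIs per cell. With 1 library per group nothing could be tested, and every interval covers counting error only, not the differences between tumours. A ratio is called past the fold where at least 100 UMIs were summed over both libraries, the difference was at least 1.5-fold and its counting interval excluded no difference.

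In the hepatoma-like cells, 7 of the 9 members were well above the counting floor, and the same 7 were so in both libraries. Lrp1 stood at 115 CPM (113 to 117) in the control and 107 CPM (105 to 109) in the treated library, M6pr at 58.6 and 57.5 CPM, and Tfrc at 51.5 and 49.3 CPM. Sort1 followed with 27.2 and 24.3 CPM, Igf2r with 21.3 and 18.7 CPM, Gnptab with 16.7 CPM in the control and 14.3 to 15.8 CPM (interval) in the treated library, and Scarb2 with 11.3 and 12.8 CPM. A UMI of Lrp1 was found in 89.7% of control and 86.5% of treated hepatoma-like cells, one of M6pr in 80.6% in both, and one of Igf2r in 47.7% and 43.5%. Both mannose 6-phosphate receptors were detected together in 43.4% and 39.1% of these cells and neither in 15.2% and 14.9%. The target Bsg was at 994 and 1005 CPM and was detected in 95.7% of hepatoma-like cells in each library.

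**Figure D1:**
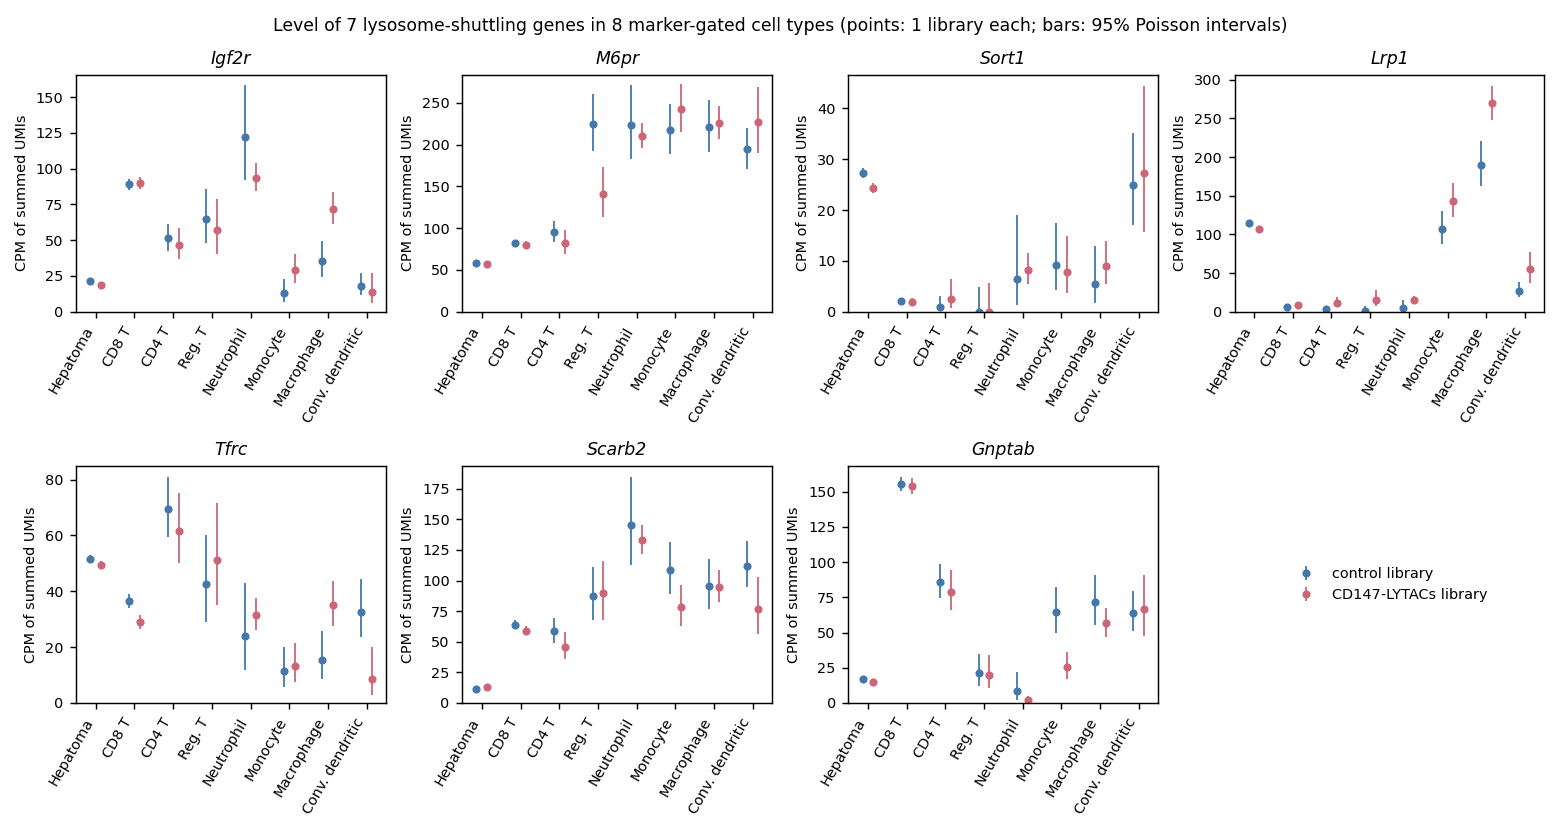
Level of 7 members in 8 marker-gated cell types, in CPM of each type's summed UMIs, with the control library in blue, the CD147-LYTACs library in red and exact Poisson 95% intervals as bars. M6pr and Scarb2 are lowest in the hepatoma-like cells in both libraries, Lrp1 is highest in macrophage-like cells (190 and 270 CPM), and Gnptab is highest in CD8 T-like cells (155 and 154 CPM).

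Igf2r, the cation-independent receptor that recycles between the trans-Golgi network, endosomes and the surface, had its highest level outside the tumour cells. It was at 122 CPM (92.0 to 158) in control and 93.6 CPM (84.0 to 104) in treated neutrophil-like cells, and at 89.0 and 89.8 CPM in CD8 T-like cells. Regulatory T-like cells had 65.0 and 57.3 CPM, macrophage-like cells 35.2 and 71.9 CPM, CD4 T-like cells 51.4 and 46.7 CPM, monocyte-like cells 13.3 and 28.8 CPM, and conventional dendritic-like cells 17.9 and 13.7 CPM. CD8 T-like cells were 4.19-fold above the hepatoma-like cells in the control and 4.81-fold in the treated library, and neutrophil-like cells 5.73-fold and 5.01-fold. No 2 neighbours in this order were apart beyond their intervals in both libraries, but the CD8 T-like values lay wholly above those of the hepatoma-like cells.

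The share of cells with a UMI gives another order, and hepatoma-like cells held far more UMIs each. Their median was 45951.5 and 42597 UMIs, against 6175 and 6206.5 in T-like cells. How much of this came from RNA content and how much from capture was not tested. Thinning sets all cells to the same number of UMIs, so it also removes any difference in RNA content. Before thinning, Igf2r was detected in more hepatoma-like (47.7% and 43.5%) than T-like cells (39.1% and 40.4%). When every cell was thinned to 1000 UMIs, it was detected in 1.82% (1.28 to 2.51) and 1.69% of hepatoma-like cells and in 8.07% (7.24 to 8.97) and 8.62% of T-like cells. The thinning left out 68 hepatoma-like cells in each library and 52 and 53 T-like cells as too shallow. For scale, the keratin Krt8, which T cells should lack, was found after thinning in 2.53% of T-like cells in each library, and Cd3e, which hepatoma cells should lack, in 0.101% and 0.0914% of hepatoma-like cells.

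The Igf2r locus also holds Airn, a long non-coding RNA transcribed from the opposite strand. Igf2r is a textbook imprinted gene: in most mouse tissues the maternal copy is transcribed, and Airn is transcribed from the paternal copy, which it silences. Airn was picked as the one abundant gene that overlaps a member, after its values had been seen. It was at 416 CPM (412 to 420) in control and 378 CPM (374 to 381) in treated hepatoma-like cells, where Igf2r had 21.3 and 18.7 CPM, and at 124 and 120 CPM in CD8 T-like cells, where Igf2r had 89.0 and 89.8 CPM. Thus the hepatoma-like cells had the higher Airn level and the lower Igf2r level of the pair of types, in both libraries. Neutrophil-like cells had 84.8 and 56.2 CPM of Airn. No source used here says whether the counting used strand, so reads from the overlapping stretch cannot be told apart with certainty.

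**Figure D2:**
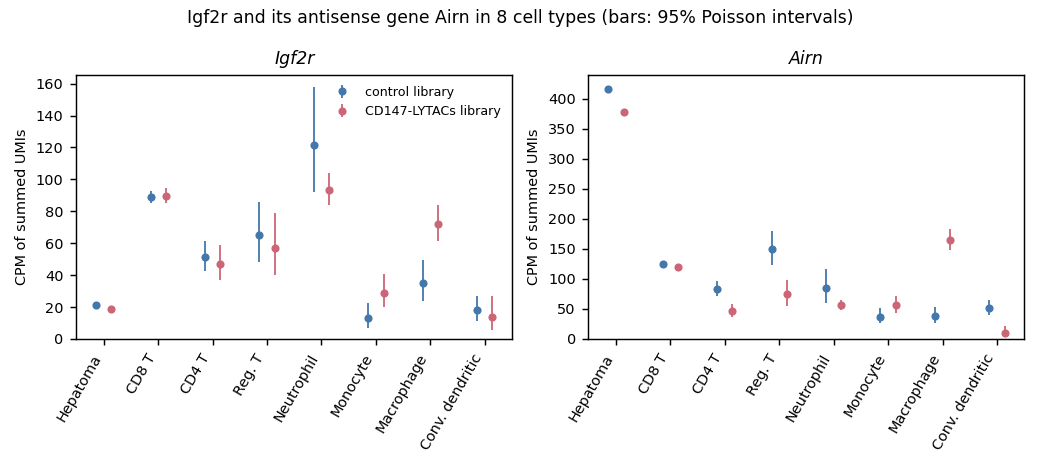
Igf2r (left) and its antisense gene Airn (right) in 8 cell types, in CPM of summed UMIs, with exact Poisson 95% intervals as bars and 1 point per library. Airn is highest in hepatoma-like cells (416 and 378 CPM), where Igf2r is among the lowest, and both genes are higher in the treated than in the control macrophage-like cells.

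M6pr, the cation-dependent receptor that works mainly between the Golgi and endosomes, was high in all 4 myeloid types. It was at 217 CPM (189 to 248) and 243 CPM (215 to 273) in monocyte-like cells, 221 and 226 CPM in macrophage-like cells, 224 and 211 CPM in neutrophil-like cells and 195 and 227 CPM in conventional dendritic-like cells. These 4 types did not differ beyond their intervals. CD4 T-like cells had 95.2 and 82.2 CPM and CD8 T-like cells 82.0 and 79.9 CPM. Hepatoma-like cells were lowest at 58.6 and 57.5 CPM, below the CD8 T-like cells beyond the intervals. This order holds per UMI and not per cell. In the control library 2048 hepatoma-like cells held 5883 UMIs of M6pr, and 2847 CD8 T-like cells held 1881. Regulatory T-like cells were above the other T-like subsets, at 224 CPM (192 to 261) in the control library, within the range of the myeloid types, and at 141 CPM (113 to 173) in the treated one.

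Gnptab encodes the catalytic subunits of the phosphotransferase that starts the mannose 6-phosphate tag. CD8 T-like cells had 155 CPM (150 to 160) and 154 CPM (148 to 160), which was 9.31-fold and 10.3-fold above the hepatoma-like cells and above every other of the 8 types beyond the intervals. CD4 T-like cells had 86.0 and 79.1 CPM, whereas regulatory T-like cells had 21.2 and 20.1 CPM, close to the level in hepatoma-like cells. The NK-like cells, of which there were only 35 and 46, had 154 and 180 CPM. In neutrophil-like cells there were 4 UMIs in the control and 9 in the treated library (8.70 and 2.44 CPM), although M6pr in the same cells was among the highest of all types. Of the other genes of the tag, hepatoma-like cells had 10.7 and 11.6 CPM of Gnptg, the gamma subunit of the same enzyme, and 4.43 and 5.64 CPM of Nagpa, which uncovers the phosphate, both under 1.5-fold between the libraries.

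Asgr1 and Asgr2 encode the subunits of the hepatocyte receptor for galactose and N-acetylgalactosamine. In hepatoma-like cells Asgr1 had 10 UMIs in the control and 4 in the treated library among 100432725 and 104082270 summed UMIs, which is 0.0996 CPM (0.0477 to 0.183) and 0.0384 CPM (0.0105 to 0.0984). Asgr2 had 41 and 37 UMIs, or 0.408 CPM (0.293 to 0.554) and 0.355 CPM (0.250 to 0.490). A UMI of Asgr1 was found in 9 of 2048 and 4 of 2256 hepatoma-like cells and one of Asgr2 in 34 and 33, with 2 cells in each library holding both. These are shares of 0.439% and 0.177% for Asgr1 and of 1.66% and 1.46% for Asgr2. The T cell gene Cd3e, which is abundant in the T-like cells of these libraries, was found in 5.22% and 3.72% of the same cells. No gated type had a comparable level of Asgr1 or Asgr2, so the Cd3e share cannot be carried over to them. Over all filtered barcodes Asgr1 reached 12 and 9 UMIs and Asgr2 56 and 40. The same hepatoma-like cells had 1118 and 1162 CPM of albumin (Alb), while a list of 8 further genes of mature hepatocytes summed to 0.249 and 0.432 CPM, with 2 and 4 of its genes at 0 UMIs. Asgr1 was at 0 UMIs in all 7 immune types, where 3 UMIs would have been between 0.131 and 6.52 CPM. Asgr2 had at most 3 UMIs in any of them per library. The measured levels of both genes were thus at 0 or below 3 CPM in all 8 types.

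Sort1 encodes sortilin, which carries proteins from the Golgi to endosomes. It was at 27.2 CPM (26.2 to 28.3) and 24.3 CPM (23.3 to 25.2) in hepatoma-like cells and at 24.9 and 27.4 CPM in conventional dendritic-like cells, which did not differ beyond their intervals. Monocyte-like cells had 9.22 and 7.86 CPM, below the hepatoma-like cells beyond the intervals. CD8 T-like cells had 2.05 and 1.87 CPM, and in regulatory T-like cells Sort1 was at 0 UMIs in both libraries, where 3 UMIs would have been 3.98 and 4.64 CPM.

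Lrp1 encodes a large endocytic receptor of the LDL receptor family with many ligands, among them apolipoprotein E and protease complexes. Macrophage-like cells had 190 CPM (163 to 221) and 270 CPM (249 to 292), monocyte-like cells 108 and 143 CPM, hepatoma-like cells 115 and 107 CPM and conventional dendritic-like cells 27.3 and 54.7 CPM. The 11 and 20 fibroblast or mural-like cells, too few to rank, had 389 and 382 CPM. Neutrophil-like cells (4.35 and 15.2 CPM) and CD8 T-like cells (5.49 and 8.17 CPM) were far below the tumour cells, at 3.78% and 14.2% of their level in neutrophil-like and 4.78% and 7.66% in CD8 T-like cells.

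Tfrc encodes the transferrin receptor, which brings iron into the cell and is known to be high in dividing cells. CD4 T-like cells had 69.5 CPM (59.3 to 81.0) and 61.7 CPM (50.1 to 75.1), hepatoma-like cells 51.5 and 49.3 CPM, regulatory T-like cells 42.5 and 51.1 CPM, CD8 T-like cells 36.4 and 29.0 CPM and monocyte-like cells 11.3 and 13.1 CPM. Between CD8 T-like and monocyte-like cells by mean level came neutrophil-like cells (23.9 and 31.5 CPM) and macrophage-like cells (15.4 and 35.1 CPM). Conventional dendritic-like cells (32.7 and 8.55 CPM) came there too. With these types included, no neighbours in the order were apart beyond the intervals in both libraries. CD8 T-like cells lay above monocyte-like cells, with lower limits of 34.0 and 26.5 CPM against upper limits of 20.2 and 21.6 CPM. Scarb2 encodes LIMP-2, the lysosomal membrane protein that carries glucocerebrosidase to the lysosome without the mannose tag. It was at 146 CPM (113 to 185) and 133 CPM (122 to 146) in neutrophil-like cells, 12.8-fold and 10.4-fold above hepatoma-like cells, and between 58.6 and 112 CPM in the control and 46.1 and 94.9 CPM in the treated library in the other 6 immune types. Hepatoma-like cells, at 11.3 and 12.8 CPM, were below every immune type beyond the intervals. This order holds per UMI and not per cell. A UMI of Scarb2 was found in 36.5% and 38.2% of hepatoma-like cells and in 26.4% and 28.9% of neutrophil-like cells. The share was 34.5% and 33.8% in CD8 T-like cells and 68.5% and 39.7% in conventional dendritic-like cells. In the control library 2048 hepatoma-like cells held 1139 UMIs of Scarb2, and 140 neutrophil-like cells held 67.

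Of the 7 members with enough UMIs, M6pr and Scarb2 had their lowest level of the 8 types there in both libraries, as had 9.6% of the 15349 genes compared. The share of genes compared that had their highest level there in both libraries was 26.7%, against 0 of these 7. Asgr1, with too few UMIs to count, had UMIs in hepatoma-like cells and none in the other 7 types. These counts cannot rank it, since 3 UMIs in those types would have been at least 0.131 CPM. That is above its hepatoma level of 0.0996 and 0.0384 CPM. The control T-like cells as a whole held 1 UMI of it, and the treated fibroblast or mural-like cells held 1. The target showed the opposite order to M6pr and Scarb2. Bsg in immune types was between 9.56% and 20.6% of its hepatoma level in the control library and between 11.7% and 21.0% in the treated one.

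Within the hepatoma-like cells no member was past 1.5-fold between the libraries. Igf2r had a log2 ratio (treated over control) of -0.19 (-0.28 to -0.10), Sort1 of -0.17 (-0.24 to -0.09), Gnptab of -0.15 (-0.25 to -0.05), Lrp1 of -0.11 (-0.15 to -0.07), Tfrc of -0.06 (-0.12 to -0.01), M6pr of -0.03 (-0.08 to 0.02) and Scarb2 of 0.18 (0.06 to 0.29). Scarb2 was the 1 of 7 above 0, with a median of -0.11 against -0.02 over the 13917 genes compared, of which 4.16% were past the fold. For Asgr1 (10 and 4 UMIs) and Asgr2 (41 and 37 UMIs) the counts were too few to read a direction, with intervals of -3.50 to 0.42 and -0.88 to 0.48. Bsg had a ratio of 0.02 (0.00 to 0.03).

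**Figure D3:**
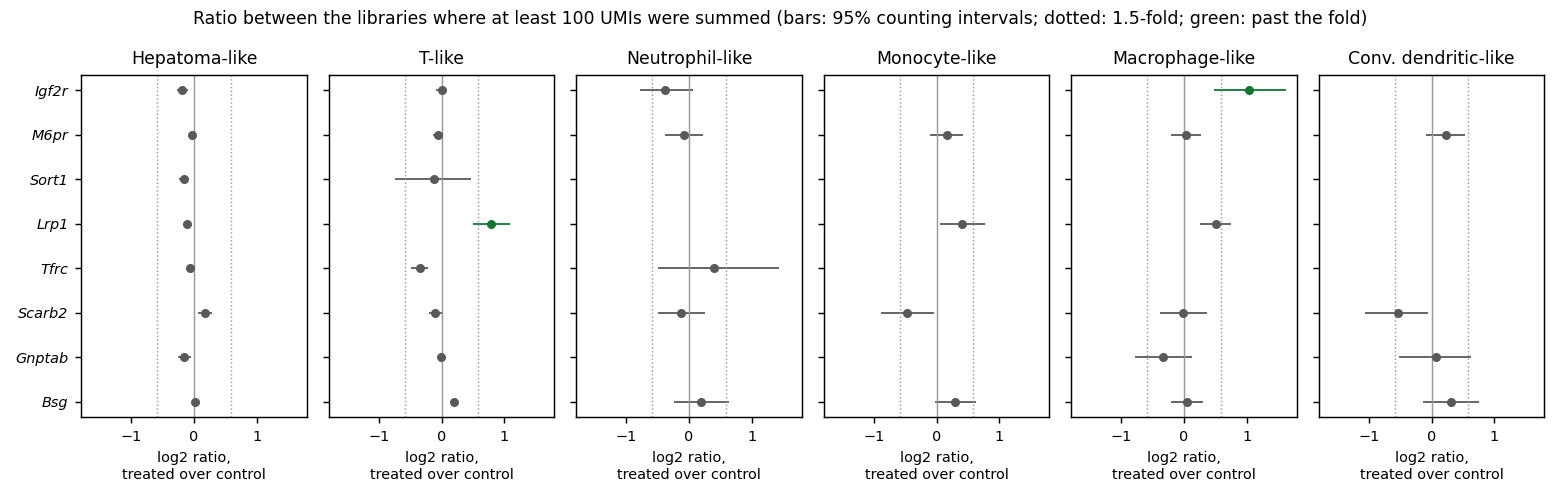
Log2 ratio of the treated over the control library for 7 members and the target Bsg in 6 cell types, where at least 100 UMIs were summed; bars are 95% counting intervals and dotted lines mark 1.5-fold. All members lie inside the lines in hepatoma-like cells, and the points past the fold are Lrp1 in T-like cells (0.79) and Igf2r in macrophage-like cells (1.03).

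In T-like cells, Igf2r (84.0 and 84.3 CPM), M6pr (88.4 and 85.0 CPM), Scarb2 (65.3 and 61.0 CPM) and Gnptab (142 and 141 CPM) had log2 ratios of 0.00, -0.06, -0.10 and -0.01. Tfrc was lower in the treated library, at 40.3 CPM (38.1 to 42.6) and 31.7 CPM (29.5 to 34.1), a log2 ratio of -0.35 (-0.48 to -0.21) that stayed under the fold, although the summed markers of cycling cells were higher there (593 and 741 CPM). One of 7 members was past the fold, against 4.36% of the genes compared: Lrp1, at 5.54 CPM (4.74 to 6.45) in the control and 9.62 CPM in the treated library, from 169 and 222 UMIs, a log2 ratio of 0.79 (0.50 to 1.09). The 8 macrophage markers in the same T-like cells summed to 22.0 and 71.7 CPM with none at 0, and a UMI of Lrp1 was found in 2.50% and 4.39% of the cells. Thinned to 1000 UMIs these shares were 0.307% and 0.880%. Krt8 was then found in 2.53% of T-like cells in each library. Its level in hepatoma-like cells (1711.5 and 1806.6 CPM) was far above that of Lrp1 (115 and 107 CPM). Krt8 is therefore no direct scale for Lrp1. In CPM, Lrp1 in CD8 T-like cells was 4.78% and 7.66% of its hepatoma level. How much of the Lrp1 in T-like barcodes came from free RNA or from other cells was not tested. When the 230 control and 389 treated T-like barcodes holding any macrophage marker UMI were left out, a step chosen after seeing the data, Lrp1 stood at 2.93 CPM (2.33 to 3.64) and 2.82 CPM (2.12 to 3.68), with a ratio of -0.06 (-0.58 to 0.46). Only 82 and 54 UMIs of Lrp1 were left in these barcodes, and its level in them was lower in both libraries. Of the 8 types Lrp1 was highest in macrophage-like cells, so leaving out barcodes by macrophage markers was likely to lower it. The step therefore cannot tell where the Lrp1 came from.

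Among the T-like subsets, 0 of 6 members in CD8 T-like cells (4.1% of genes, with Lrp1 just short at 0.57) and 0 of 5 in CD4 T-like cells (6.03% of genes) were past the fold. In regulatory T-like cells 1 of the 2 members with enough UMIs was, against 12.5% of genes. This was M6pr, with 169 UMIs in 102 control cells and 91 UMIs in 70 treated cells, a log2 ratio of -0.67 (-1.06 to -0.30). It stayed at -0.67 without barcodes that held macrophage markers, but was under 1.5-fold with a stricter gate (-0.47), a looser gate (-0.52) or cell types taken from clusters (-0.56). Bsg in the same cells was higher in the treated library, at 105 and 186 CPM.

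In macrophage-like cells 1 of 5 members was past the fold, against 17.8% of genes, and it was Igf2r. It was at 35.2 CPM (24.1 to 49.7), from 32 UMIs in 109 control cells, and at 71.9 CPM (61.2 to 84.0), from 160 UMIs in 340 treated cells, a log2 ratio of 1.03 (0.48 to 1.63). A UMI of Igf2r was found in 16.5% and 30.6% of the cells. The antisense gene Airn was also higher in these cells, at 38.5 CPM (26.8 to 53.5) in the control and 165 CPM (149 to 183) in the treated library. Lrp1 was at 190 and 270 CPM, a ratio of 0.50 (0.26 to 0.76), while M6pr (221 and 226 CPM) and Scarb2 (95.7 and 94.9 CPM) were level. Tfrc, from 14 and 78 UMIs, had 15.4 and 35.1 CPM.

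Markers of other types in these macrophage-like cells summed to 103 and 394 CPM for neutrophils and 110 and 125 CPM for T cells, with 1 of 8 neutrophil markers at 0 in the control. Without the 36 control and 172 treated barcodes that held a neutrophil marker UMI, also a step chosen after seeing the data, Igf2r was at 39.7 and 78.7 CPM with a ratio of 0.99 (0.27 to 1.76). The difference was smaller where the gate was stricter, at 0.44 (-0.05 to 0.96), and where clusters were used, at 0.40 (0.15 to 0.66), both under the fold. The clusters named macrophage-like held 1572 cells of both libraries, of which 25.4% were in the gate, so they are a much wider set of cells. The gated macrophage-like cells of the libraries were also unlike in other genes: cycling markers summed to 257 and 97.1 CPM, and Mgl2, a macrophage lectin that binds N-acetylgalactosamine, was at 278 and 91.7 CPM. The part of such differences in cell state in the Igf2r ratio was not tested.

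In the remaining myeloid types no member was past the fold: 0 of 4 in neutrophil-like cells (19.4% of genes), 0 of 3 in monocyte-like cells (17.9%) and 0 of 3 in conventional dendritic-like cells (17.6%). Several members fell short only by their UMI number. Gnptab in monocyte-like cells had 63 and 29 UMIs, or 64.5 CPM (49.6 to 82.6) and 25.3 CPM (17.0 to 36.4). Igf2r in monocyte-like cells had 13 and 33 UMIs, and Tfrc in conventional dendritic-like cells had 42 and 5, or 32.7 and 8.55 CPM. Scarb2 was lower in treated monocyte-like cells (109 and 78.6 CPM) and conventional dendritic-like cells (112 and 77.0 CPM), each by less than 1.5-fold. The summed macrophage markers in monocyte-like cells were 305 and 715 CPM, so these cells too were not alike between the libraries, and the part of this in the ratios was not tested.

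Tfrc had a higher level in cycling cells than in the other cells of the same type. Cells with at least 5 UMIs of 10 cycling markers per 10000 were set against the other cells of the same library, which does not depend on a comparison between libraries. In hepatoma-like cells Tfrc was at 71.1 CPM in 481 cycling and 42.8 CPM in 1567 other control cells, and at 63.7 CPM in 604 cycling and 41.6 CPM in 1652 other treated cells. The log2 ratios were 0.73 (0.65 to 0.81) and 0.62 (0.54 to 0.70). It was the 1 of 7 members past the fold the same way in both libraries, against 11.5% of the 12264 genes compared, so the count is near that share. Lrp1 had the opposite sign, at -0.43 (-0.49 to -0.37) and -0.39 (-0.45 to -0.33), and M6pr had ratios of -0.04 and 0.00.

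T-like cells gave the same result for Tfrc, with 59.5 and 35.4 CPM in 431 cycling and 3536 other control cells and 45.8 and 26.0 CPM in 457 cycling and 2437 other treated cells. Its log2 ratios were 0.75 (0.57 to 0.93) and 0.82 (0.60 to 1.03). Again it was the 1 of 6 members past the fold in both libraries, against 13.5% of genes, a count that is also near the share. Scarb2 (-0.54 and -0.51) and Igf2r (-0.52 and -0.36) were lower in cycling T-like cells, by less than 1.5-fold. Lrp1 had -1.02 (-1.79 to -0.33) in the control, past the fold, and -0.34 (-0.81 to 0.11) in the treated library, where the interval included no difference. The treated library thus had the lower Tfrc level in both the cycling and the other T-like cells. Near the cut, 201 and 226 hepatoma-like cells and 506 and 356 T-like cells could fall on either side of it.

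**Figure D4:**
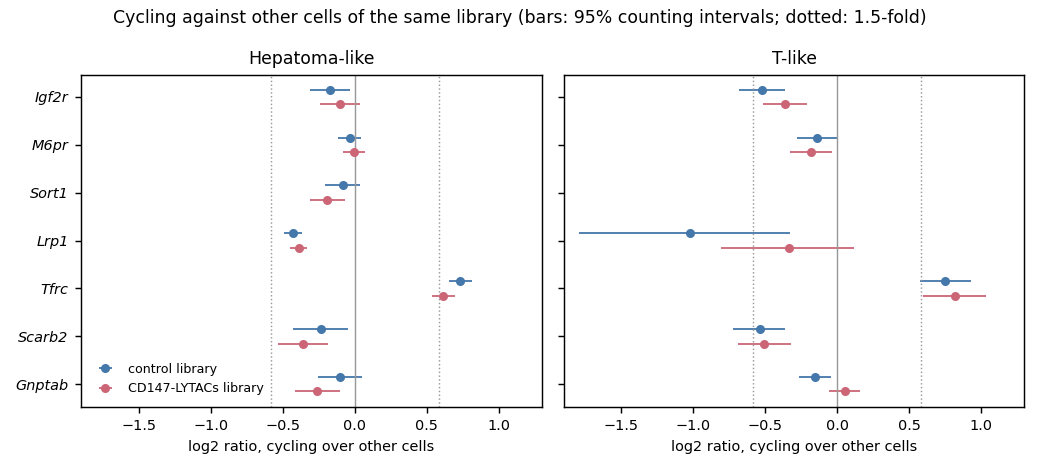
Log2 ratio of cycling over other cells of the same library for 7 members in hepatoma-like cells and 6 in T-like cells (Sort1 had too few UMIs), with 95% counting intervals as bars and 1 point per library. Tfrc lies above the 1.5-fold line in both cell types and both libraries, and Lrp1 lies below 0.

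The genes whose level followed each member most closely over the 8 cell types and 2 libraries were found by Pearson correlation of log2(CPM + 1) over 16 points among 12034 genes. The points share their libraries and are few, so the values only describe these cells. Igf2r was followed by Abhd10 (r = 0.926), Qsox1 and Megf9, M6pr by Gda (0.964), Tcn2 and Qk, and Scarb2 by Agpat4 (0.975), Adam17 and Snx20. Lrp1 was followed by Sdc1 (0.972), Blnk and Sash1, and Sort1 by Fnbp1l (0.942), Myadm and F11r. Gnptab was followed by Id2 (0.955), Fgf13 and Gapvd1. The closest match of Tfrc, Atg101, was weaker (0.862), followed by Gstp3 and Hjurp.

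The machinery around the receptors was present in hepatoma-like cells. None of the 15 sorting adaptors and coat subunits, the 9 retromer genes and sorting nexins, the 3 receptor chaperones, 6 of 8 genes of iron handling with enough UMIs, 10 of 12 ligands and cargo and 13 of 20 other receptors was past 1.5-fold, where 4.16% of all genes compared were, so a count of 0 is close to that share. The most abundant of each list were the clathrin light chain Clta (434 and 476 CPM), the retromer core subunit Vps35 (187 and 190 CPM), the chaperone Calr (518 and 520 CPM), the ferritin light chain Ftl1 (3098 and 3573 CPM), the LRP1 ligand Apoe (266 and 293 CPM) and the integrin subunit Itgav (185 and 179 CPM). Transferrin (Trf), the ligand of Tfrc, was at 233 and 243 CPM. Igf2, the growth factor that Igf2r binds and removes, was at 0 UMIs in hepatoma-like cells of both libraries, which allows at most 0.0299 and 0.0288 CPM at 3 UMIs.

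In immune cells some genes of these lists were past the fold, as were genes in general. In T-like cells 2 of 9 ligands and cargo, 1 of 4 iron genes and 3 of 11 other receptors were past it (4.36% of all genes compared there), all higher in the treated library, and the 4 with the greatest ratio were the mannose receptor Mrc1 (2.33 and 10.9 CPM), lipoprotein lipase Lpl (2.49 and 6.15 CPM), the scavenger receptor Cd36 (6.14 and 10.3 CPM) and Mgl2 (4.76 and 7.80 CPM). All are known from macrophages, whose markers were also higher in these T-like cells (22.0 and 71.7 CPM), and the part of such cells in these ratios was not tested. None of 15 adaptors, 9 retromer genes and sorting nexins or 3 chaperones was past the fold in T-like cells. In macrophage-like cells 2 of 11 adaptors, 3 of 9 ligands and cargo, 2 of 5 iron genes and 4 of 9 other receptors were past the fold, where 17.8% of all genes compared were. None of 8 retromer genes and sorting nexins or 2 chaperones was. The lysosomal protease Ctsd (1340 and 2717 CPM), Cd36 (217 and 490 CPM) and the clathrin adaptor subunit Ap2m1 (73.7 and 142 CPM) were higher in the treated library, and Apoe (4075 and 2218 CPM) and Mgl2 (278 and 91.7 CPM) were lower. In monocyte-like cells 17.9% of all genes compared were past the fold. Of the lists, 4 of 7 ligands and cargo, 1 of 2 chaperones and 3 of 3 iron genes were higher, 1 of 6 other receptors (Mrc1) was higher and 3 of 6 (Sorl1, Mgl2 and Cd36) were lower, and none of 7 adaptors or 8 retromer genes and sorting nexins was past it. The ligands and cargo were led by Ctsd (170 and 661 CPM) and Apoe (171 and 411 CPM), and Mgl2 was lower (215 and 86.5 CPM). In neutrophil-like cells (19.4% of genes) 1 of 7 ligands and cargo (Apoe) and 1 of 3 other receptors (Itgav) were higher. Trf, Hexa and the iron gene Slc40a1 were lower. In conventional dendritic-like cells (17.6% of genes) 3 of 4 ligands and cargo and 2 of 5 other receptors were lower. The adaptors, retromer genes and chaperones of both types had none past the fold.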

How the data were processed

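Single-cell RNA was measured in 1 control and 1 treated library. As deposited, each matrix gives UMI counts by gene and barcode in whole numbers, not normalized. The submitters' processing notes name Cell Ranger 3.0.2 and mm10, and per the file headers the version was 7.1.0. No source used here gives the annotation release or says whether intronic reads or strand were counted. The members and all gene lists were chosen with earlier results of these data known.

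A filter of 500 UMIs, 300 genes and no more than 15% mitochondrial UMIs kept 7091 control and 8176 treated barcodes. Each was gated by the summed markers of a type per 10000 UMIs, at thresholds of 10 for most types, 15 for NK, 20 for fibroblast or mural and endothelial and 30 for neutrophil cells, set after seeing the marker levels. Barcodes of more than 1 lineage were left out as mixed, and a doublet caller (Scrublet) was run only for an alternative, which removed 402 control and 535 treated barcodes. UMIs were summed per type and library (Python 3.11.15, scipy 1.17.1). Poisson, Clopper-Pearson and conditional binomial 95% intervals cover counting error only, and a count of 0 was taken to allow 3 UMIs. No test between groups was possible. The steps for ratios and calls were run on simulated Poisson counts. These hold no variation among cells or tumours, so they check the computation only. All members were named. For each, the 3 most correlated genes were named among those with at least 500 UMIs, and of each pathway list up to 4 genes past the fold and the most abundant one. Alternatives were TMM scaling (edgeR 4.0.16), a mean over cells, stricter (2 times) and looser (0.5 times) gates, Leiden clusters (scanpy 1.11.5), at most 10% mitochondrial UMIs, removal of the highest Scrublet scores, a minimum of 20 UMIs and thinning to 2000 UMIs. Gene positions are from GENCODE M21, in which 99.6% of the gene identifiers matched. Samples were grouped by their treatment label, and all samples were used.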

Additional observations from a re-analysis of the deposited data

Results flagged for a closer look

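Igf2r, Lrp1 and Scarb2 had ratios between the libraries of opposite sign in different cell types, each with a counting interval that excluded no difference. The difference between cell types was not tested, since each group is 1 library. Igf2r had a log2 ratio of 1.03 in macrophage-like and -0.19 in hepatoma-like cells. Lrp1 had 0.57 in CD8 T-like, 0.50 in macrophage-like and 0.41 in monocyte-like cells against -0.11 in hepatoma-like cells, and the CD8 T-like value was -0.27 (-0.93 to 0.37) among barcodes without macrophage marker UMIs. Scarb2 had 0.18 in hepatoma-like cells against -0.47 in monocyte-like and -0.54 in conventional dendritic-like cells. Only the Igf2r ratio in macrophage-like cells exceeded 1.5-fold.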

How the results depend on the processing

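No paired analysis was possible because each group is 1 library, and leaving out a replicate was not possible for the same reason. In hepatoma-like cells no member was past 1.5-fold under any of the 8 alternatives that give a value. In T-like cells the count of members past the fold was 1 in the report and 0 with the looser gate (Lrp1 log2 ratio 0.45), with Leiden clusters (0.48) and without barcodes holding macrophage marker UMIs (-0.055, the one called ratio that changed sign). In CD8 T-like cells it was 1 instead of 0 with a mean over cells, the stricter gate, the 10% mitochondrial limit and the removal of Scrublet scores, each time Lrp1, and in CD4 T-like cells 1 instead of 0 at a minimum of 20 UMIs. In regulatory T-like cells it was 0 instead of 1 with either other gate and with clusters. In macrophage-like cells it was 0 instead of 1 with the stricter gate and with clusters, and 2 with a mean over cells and at a minimum of 20 UMIs; without barcodes holding neutrophil marker UMIs it was again 1, but Lrp1 in place of Igf2r, which then had fewer than 100 UMIs. In monocyte-like cells it was 1 instead of 0 with a mean over cells and the stricter gate, and 2 with the looser gate and at a minimum of 20 UMIs. It was 1 instead of 0 in neutrophil-like cells with clusters, and in conventional dendritic-like cells 1 with a mean over cells and 2 at a minimum of 20 UMIs. No cluster was named monocyte-like, so that alternative has no value there. TMM scaling, the mitochondrial limit and the Scrublet removal left all 42 ratios of members inside their counting intervals, and the mean over cells put 9 of 42 outside. At 2000 instead of 1000 UMIs, 44 thinned shares lay outside their earlier interval and 28 inside. The cell type with the highest level was kept for 7 of 7 members under TMM scaling, the stricter gate, the mitochondrial limit and the Scrublet removal, for 6 with a mean over cells and the looser gate and for 5 with clusters; Sort1 was then highest in hepatoma-like cells with the looser gate and with clusters. The depth limits the ratios of Asgr1 and Asgr2 in every type, their levels in the immune types and most members in the myeloid types.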

Other observations

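Cell types with too few cells to compare still gave values. The 11 control and 20 treated fibroblast or mural-like cells had 128 CPM (81.1 to 192) and 63.7 CPM (39.4 to 97.4) of Igf2r and 412 and 300 CPM of Airn, so both genes of the locus were high in them. Scarb2 stood at 111 and 97.1 CPM in these cells, and M6pr, from 3 and 20 UMIs, at 16.7 and 60.7 CPM. The 35 and 46 NK-like cells had 88.0 and 67.0 CPM of Igf2r, 116 and 129 CPM of Scarb2 and no UMI of Lrp1 in either library. In the 20 and 36 mast or basophil-like cells Igf2r was at 0 UMIs in both libraries, where 3 UMIs would have been 26.1 and 15.6 CPM.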
